A study of Rattus norvegicus with 9 samples.

Results

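Creatine kinases and the genes that make and import creatine were followed in whole bone of the rat skull and limb. They were 6 genes, Ckb, Ckm, Ckmt2, Gamt, Gatm and Slc6a8, taken as the probe sets whose platform annotation names only one of them. This gave 8 of the 31042 probe sets and 6 of the 14217 genes measured. The arrays held RNA of the calvaria (the vault of the skull, 4 arrays) and of the ulna (5 arrays, a forelimb long bone) of untreated male CD rats weighing 110 g by the labels. By the methods of the study, soft tissue and the sutures or epiphyses were taken off before extraction, and each RNA came from a group of rats. The skull and limb groups are called calvaria 1 to 4 and ulna 1 to 5. For ulna 1, 2, 3 and 4 a tissue field of the labels names the calvaria, in conflict with their titles and source names. The groups follow the titles, and which field is right was not tested.

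Creatine is built in a pair of steps. Gatm joins the amidino group of arginine to glycine, and Gamt methylates the product to creatine. Cells that do not make it import it through the sodium-dependent transporter Slc6a8. Creatine kinases then move phosphate between ATP and creatine, so that phosphocreatine buffers ATP where demand changes fast. Ckb is the cytosolic form of brain, smooth muscle and many other tissues and is abundant in mouse osteoclasts, where it has been linked to bone resorption. Ckm is the cytosolic form of striated muscle, and Ckmt2 is the mitochondrial form of heart and skeletal muscle.

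The pathway split between the sites by isoenzyme. The brain-type kinase Ckb and the transporter Slc6a8 were higher in the skull (S:L ratios of 6.87 for Ckb and of 2.29 and 3.07 for the 2 probe sets of Slc6a8, where the S:L ratio is the mean skull signal over the mean limb signal). The muscle kinases Ckm and Ckmt2 lay near background in the skull and were bright in the limb. Both enzymes of synthesis differed by less than 2-fold, Gamt being higher (1.40) and Gatm lower (0.567) in the skull. The genes were proposed with this comparison already known, so these values are a description and no test of them is given. Of the 8 probe sets, 5 passed an adjusted p below 0.05 and a 2-fold difference in the limma fit over all probe sets (3 toward the skull and 2 toward the limb). Of all probe sets 6.24% passed, 2.89% toward the skull and 3.36% toward the limb. No skull array overlapped a limb array for 7 of the 8, against 21.2% of all probe sets, and Gatm 1377784_at was the exception.

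**Figure D1:**
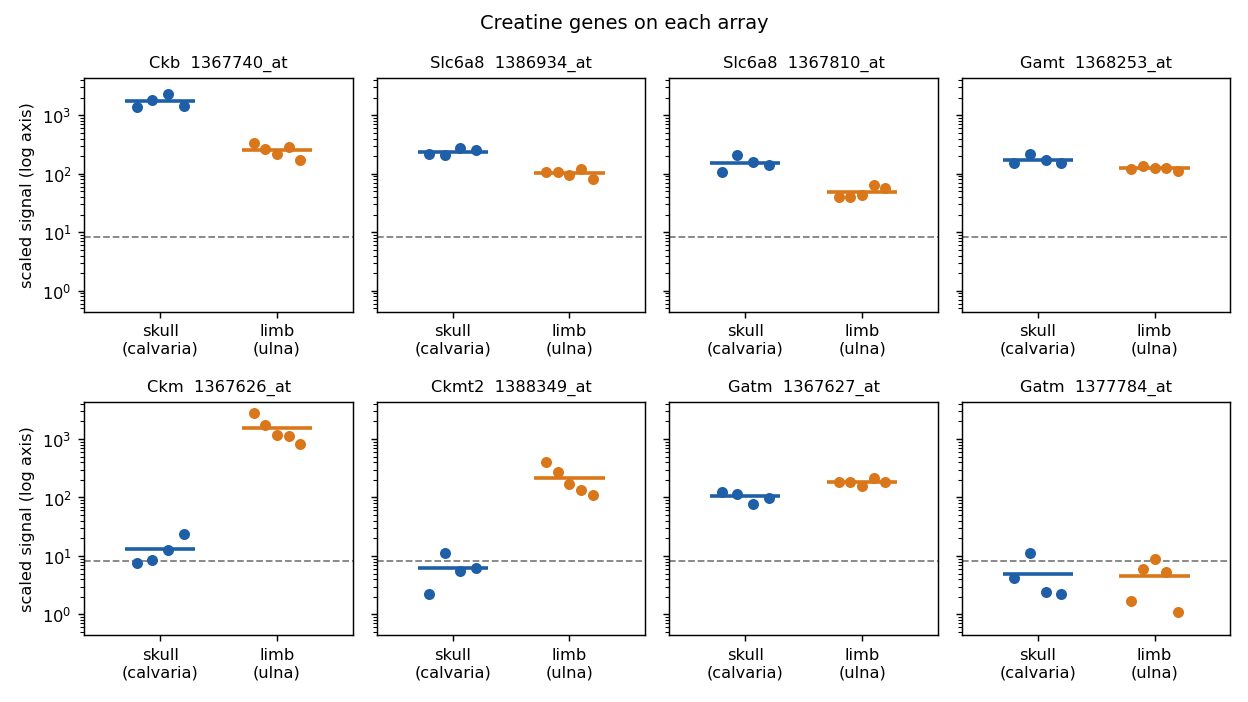
Scaled signal (log axis, no unit) of the 8 probe sets on each array, blue for calvaria (skull) and orange for ulna (limb), with the site mean as a bar and the highest signal of a control absent from the samples (8.34) as a dashed line. Ckb and Slc6a8 lie higher in the skull, Ckm and Ckmt2 lie near the dashed line in the skull and far above it in the limb, and Gatm 1377784_at lies around the line at both sites.

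Signals are array intensities without unit, scaled to a common median, and are compared between arrays for a probe set but not between probe sets. The level reached by absent transcripts was read from 3 control probe sets for the bacterial trp gene. The highest of these signals on an array was 0.591 to 8.34. Array medians as deposited were 33.01 to 36.59. RNA integrity was read from the controls placed at both ends of a transcript, and their log2 ratio (3' end over 5' end) was 0.28 to 0.59 in the skull and 0.21 to 0.37 in the limb for Gapdh, and 0.75 to 1.04 in the skull and 0.57 to 0.86 in the limb for beta-actin, so that the ranges of the sites overlapped. The bone markers were present at both sites: the mean log2 signal of 11 osteoblast and osteocyte genes was 10.98 to 11.39 in the skull and 10.62 to 10.84 in the limb, and no gene of the list lay at the level of absent controls.

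The 3 creatine kinases are shown with the 250 bases before their RefSeq start in assembly GRCr8, because they differed in opposite directions. Capitals mark E-boxes, CANNTG (the core bound by myogenic helix-loop-helix factors such as MyoD), and a loose MEF2-type pattern, CTA and TAG separated by any 4 bases. Each was searched on both strands. The loose pattern does not require the A or T bases of a MEF2 site between CTA and TAG. The windows are chr1:88189211-88189460 on the plus strand for Ckm, chr2:24845512-24845761 on the minus strand for Ckmt2 and chr6:136553465-136553714 on the minus strand for Ckb.
Ckm: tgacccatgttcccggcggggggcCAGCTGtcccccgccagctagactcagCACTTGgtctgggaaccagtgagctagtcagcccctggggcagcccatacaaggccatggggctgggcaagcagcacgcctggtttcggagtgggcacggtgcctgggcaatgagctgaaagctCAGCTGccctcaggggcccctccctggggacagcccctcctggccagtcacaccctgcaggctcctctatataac
Ckmt2: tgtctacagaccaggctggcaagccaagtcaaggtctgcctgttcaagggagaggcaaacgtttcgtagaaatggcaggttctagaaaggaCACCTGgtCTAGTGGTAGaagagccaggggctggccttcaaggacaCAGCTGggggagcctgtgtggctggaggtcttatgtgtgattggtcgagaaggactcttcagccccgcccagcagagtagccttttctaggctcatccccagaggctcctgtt
Ckb: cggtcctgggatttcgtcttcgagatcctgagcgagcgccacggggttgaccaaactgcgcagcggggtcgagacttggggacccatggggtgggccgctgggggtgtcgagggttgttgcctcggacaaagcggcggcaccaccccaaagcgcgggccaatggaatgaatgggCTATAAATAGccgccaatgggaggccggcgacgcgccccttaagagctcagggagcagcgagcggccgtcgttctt
Ckm held 3 E-boxes and Ckmt2 held 2, whereas Ckb held none. Of 33469 promoters of the same length, 65.5% held at least 1 E-box, 30.8% at least 2 and 11.5% at least 3. The loose MEF2-type pattern stood once in Ckmt2 and once in Ckb, and in 3.41% of all promoters. The match in Ckmt2, CTAGTGGTAG, has G bases between CTA and TAG, so it is not counted as a MEF2 site. In Ckb the match, CTATAAATAG, has only A and T bases between CTA and TAG, as a MEF2 site does, and it overlapped the TATA box letters TATAAA. These exact letters stood in 12.9% of promoters and in neither Ckm nor Ckmt2. The Ckm window holds TATATAA near its end, a TATA-like stretch that the search for TATAAA does not count. These matches describe letters only, and enhancers outside the windows were not searched.

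Ckb had the largest difference toward the skull of the 6 genes. Its signal was 1375, 1837, 2348 and 1427 on calvaria 1 to 4, against 331, 268, 219, 283 and 169 on ulna 1 to 5. Every skull array was thus above every limb array, and the dimmest skull array lay far above the brightest limb array. The means were 1747 ± 451 (SD, n = 4) in the skull and 254 ± 62.2 (SD, n = 5) in the limb, a log2 difference of 2.78 ± 0.22 (SE). The log2 difference is skull minus limb throughout, after signals below 2.51 were raised to that floor. Ckb also varied within sites, with a highest over lowest array of 1.71 in the skull and 1.96 in the limb. Calvaria 3 was the brightest skull array and ulna 5 the dimmest limb array. In whole bone a lower number of cells of a type and less RNA per cell cannot be told apart, which holds for every gene given here.

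Osteoclast genes lay higher in the same skull arrays. Of 10 measured, Acp5, Ctsk, Mmp9, Calcr, Tnfrsf11a and Clcn7 rose and none fell (1 fell and 7 rose at an unadjusted p below 0.05, and the methods' test also called 6 and none), where 8.07% of all genes were called and 3.59% rose, and the median log2 difference was 1.40 against -0.02 over all genes. The phosphatase Acp5 had a signal of 3932 to 5619 in the skull and 1257 to 1699 in the limb (log2 difference 1.71 ± 0.13 SE, limma adjusted p = 2.9e-05). Ctsk, the collagen-cleaving protease, had a log2 difference of 1.43 ± 0.13 (limma adjusted p = 5.8e-05). Mmp9 (1.60 ± 0.12) and the chloride exchanger Clcn7 (1.37 ± 0.13) were similar. Not all genes of this cell moved so: the carbonic anhydrase Car2, named after its values were seen and also a red cell gene, had 1617 ± 193 (SD) in the skull and 2946 ± 193 (SD) in the limb.

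On the log2 scale the mean of the list was 8.97 for skull arrays and 7.87 for limb arrays, without overlap, and differed by 1.10, whereas Ckb differed by 2.78. Within the skull Ckb and the list were both highest on calvaria 3 and both lowest on calvaria 1, as was the osteoblast and osteocyte list. Within the limb ulna 1 was highest for both, whereas ulna 5 was lowest for Ckb and ulna 2 for the list. The log2 range of Ckb over the limb arrays was 0.97, and 0.96 after the osteoclast list mean of each array was subtracted (0.97 with the osteoblast and osteocyte list). Over the skull arrays the range of Ckb was 0.77 before and 0.46 after (0.43 with the osteoblast and osteocyte list). Of the 10 osteoclast genes only Calcr and Tnfrsf11a had an array at or below the highest absent control, 1 limb array each. Of the 11 osteoblast and osteocyte genes 1 was called, the matrix sialoprotein Ibsp (1.06 ± 0.11, limma adjusted p = 0.000165, but 0.96 and no longer called without calvaria 3). Over all genes 3.59% were called higher. The median of this list was 0.37, and 6 of its genes were higher and none lower at an unadjusted p below 0.05. Its mean also lay higher on every skull array than on any limb array. The part of these cells in the difference of Ckb was not tested.

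**Figure D2:**
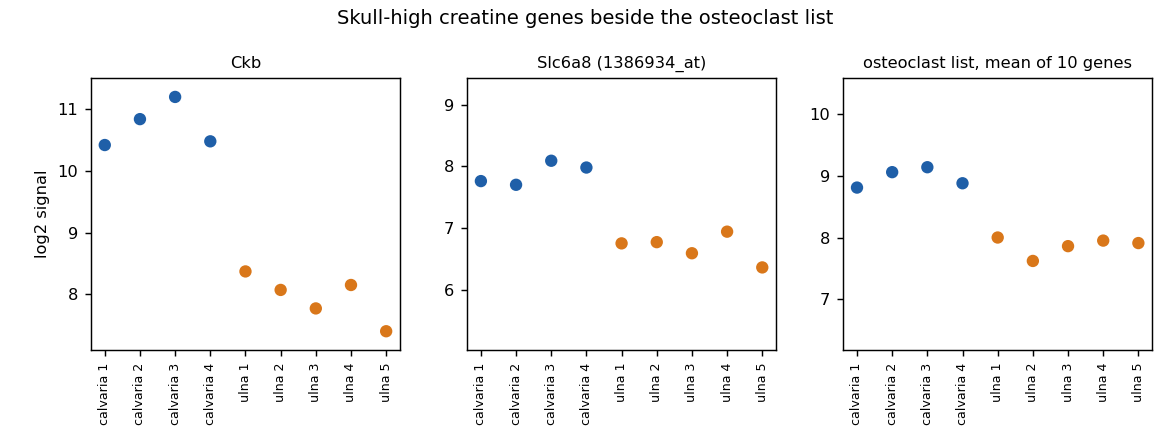
Log2 signal of Ckb, of Slc6a8 1386934_at and of the mean of 10 osteoclast genes on each array, blue for calvaria (skull) and orange for ulna (limb), on axes of equal span. The sites do not overlap in any panel, and Ckb differs by 2.78, Slc6a8 by 1.20 and the osteoclast mean by 1.10.

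Ckm, whose protein also binds the M-line of the sarcomere, lay far lower in the skull than in the limb. Its signal was 7.52, 8.40, 12.9 and 23.4 on calvaria 1 to 4, against 2815, 1733, 1170, 1134 and 822 on ulna 1 to 5. Calvaria 1 lay below the highest absent control (8.34), calvaria 2 and 3 little above it and calvaria 4 further above. No skull array lay at or below the control of its own array. Every limb array was far above the skull arrays. The means were 13.0 ± 7.28 (SD, n = 4) in the skull and 1535 ± 787 (SD, n = 5) in the limb, a log2 difference of -6.89 ± 0.42 (SE). With the skull signals raised to the highest absent control, an alternative added after seeing the data, the limb was still 116-fold higher. Calvaria 4 had the highest Ckm signal of the skull, about as far from its site mean (0.99 on the log2 scale) as ulna 1 from the limb mean (1.01).

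Ckmt2, which couples phosphocreatine production to ATP export from mitochondria, was lower in the skull as well. The skull signals were 2.27, 11.2, 5.50 and 6.28 on calvaria 1 to 4, and the limb signals 401, 271, 168, 137 and 111 on ulna 1 to 5. Of the skull arrays 3 lay below the highest absent control and 1 was at the floor, while all limb arrays were above both. The log2 difference was -5.12 ± 0.49 (SE), and the limb was at least 21.6-fold higher with the skull raised to the highest absent control. The size of the difference is therefore not resolved, and the 2 muscle kinases cannot be ranked by it.

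Both muscle kinases varied among the limb arrays in the same way. On ulna 1 to 5 Ckm deviated from its limb mean by 1.01, 0.31, -0.26, -0.30 and -0.77 on the log2 scale. Ckmt2 deviated by 1.05, 0.48, -0.21, -0.51 and -0.80. Ulna 1 was thus highest and ulna 5 lowest for both, as for Ckb (0.42 and -0.55), with a highest over lowest signal of 3.42 for Ckm and 3.60 for Ckmt2. The other probe sets above background spread less over the limb, from 1.20 (Gamt) to 1.96 (Ckb).

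Skeletal muscle genes were lower in the same skull arrays. Of 16 fast muscle genes 15 fell and none rose (median -5.64), and of 14 slow and oxidative muscle genes 13 fell and none rose (median -4.35), against a median of -0.02 and 4.47% of all genes lower. The methods' test called the same numbers, and at an unadjusted p below 0.05 1 fast gene and no slow gene was higher. The skeletal actin Acta1 had signals of 4.44 to 17.8 in the skull and 2345 to 4506 in the limb (log2 difference -8.41 ± 0.38 SE, limma adjusted p = 1.2e-05). The fast light chain Myl1 (-7.66), the fast troponin Tnnc2 (-7.77) and the calcium release channel Ryr1 (-5.57) fell as well. Among slow and oxidative genes the myosin Myh7 (-6.72), the binding protein Mybpc1 (-7.70), the cytochrome oxidase subunit Cox8b (-6.64) and myoglobin, Mb (-7.34), fell.

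In the skull 4 of the fast genes (Myh4, Tnnc2, Ryr1 and Cacna1s) and 6 of the slow ones (Myh7, Myl2, Csrp3, Cox8b, Mybpc1 and Myoz2) lay at or below the highest absent control on every array, and in the limb none did. The mean of the fast list was 2.85 to 3.60 in the skull and 8.24 to 9.65 in the limb, and that of the slow list 2.69 to 2.95 and 6.85 to 8.33. Within the limb the lists followed the same order of arrays at the ends: ulna 1 was highest and ulna 5 lowest. The log2 range of Ckm over the limb arrays was 1.78, and 0.36 after the slow list mean of each array was subtracted (0.41 with the fast list). For Ckmt2 the range was 1.85 before and 0.37 after (0.54 with the fast list). Over the skull arrays, where signals were low, the range of Ckm was 1.64 before and 1.42 (slow) or 1.81 (fast) after. That of Ckmt2 was 2.16 before and 2.08 or 2.29 after. The part of skeletal muscle cells in the difference of Ckm and Ckmt2 was not tested beyond these values.

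**Figure D3:**
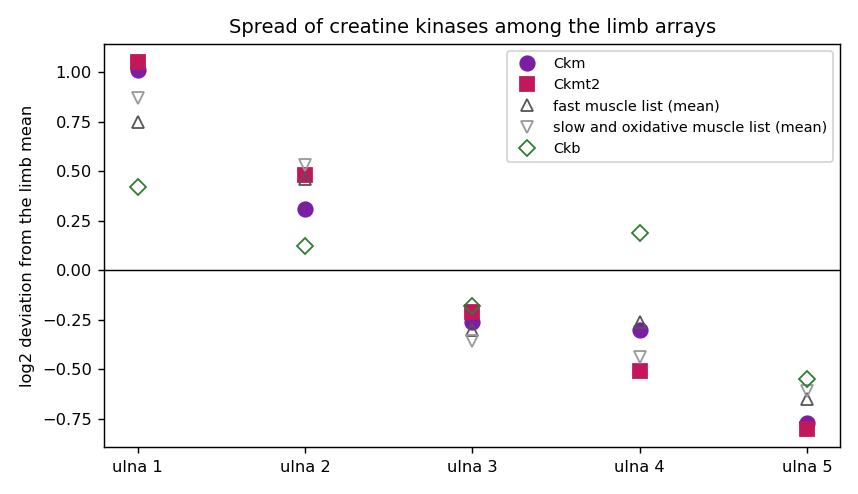
Deviation from the limb mean (log2 scale) on ulna 1 to 5 for Ckm, Ckmt2 and Ckb and for the means of 16 fast and 14 slow and oxidative muscle genes. Ckm and Ckmt2, like both muscle lists, are highest on ulna 1 (1.01 and 1.05) and lowest on ulna 5 (-0.77 and -0.80), as is Ckb (0.42 and -0.55), which lies above its mean on ulna 4 (0.19).

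The creatine transporter Slc6a8 was higher in the skull on both of its probe sets. The brighter, 1386934_at, had signals of 216, 209, 272 and 252 on calvaria 1 to 4, against 108, 109, 96.0, 123 and 81.9 on ulna 1 to 5. The dimmer, 1367810_at, had 106, 206, 157 and 139 on calvaria 1 to 4, against 40.8, 39.7, 44.2, 64.9 and 58.1 on ulna 1 to 5. Neither overlapped between the sites. The log2 differences were 1.20 ± 0.13 and 1.61 ± 0.22 (SE). They did not order the arrays alike: calvaria 3 was brightest on one and calvaria 2 on the other, and ulna 5 was the dimmest limb array on the first but not on the second.

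Of the enzymes of synthesis, Gamt was slightly higher in the skull. Its signals were 155, 216, 174 and 153 on calvaria 1 to 4, against 121, 136, 127, 124 and 113 on ulna 1 to 5. The groups did not overlap, but the gap between calvaria 4 and ulna 2 was small beside the spread of the skull arrays (SD 29.5, with calvaria 2 the highest). The log2 difference was 0.48 ± 0.11 (SE), and 0.37 without calvaria 2.

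Gatm, which acts before Gamt, was lower in the skull on the probe set that gave a clear signal. Probe set 1367627_at had 126, 116, 78.6 and 99.2 on calvaria 1 to 4, against 186, 186, 159, 213 and 183 on ulna 1 to 5. All skull arrays were below all limb arrays, with a log2 difference of -0.84 ± 0.14 (SE), short of 2-fold. The other probe set, 1377784_at, read 2.25 to 11.2 in the skull and 1.11 to 8.87 in the limb, around the level of absent controls, and says nothing about the site. The first and last steps of synthesis thus lay on opposite sides of 0. Erythroid genes were lower in the same skull arrays, 6 of 8 measured with a median of -1.15, against 4.47% of all genes lower. Their part in the difference of Gatm was not tested.

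**Figure D4:**
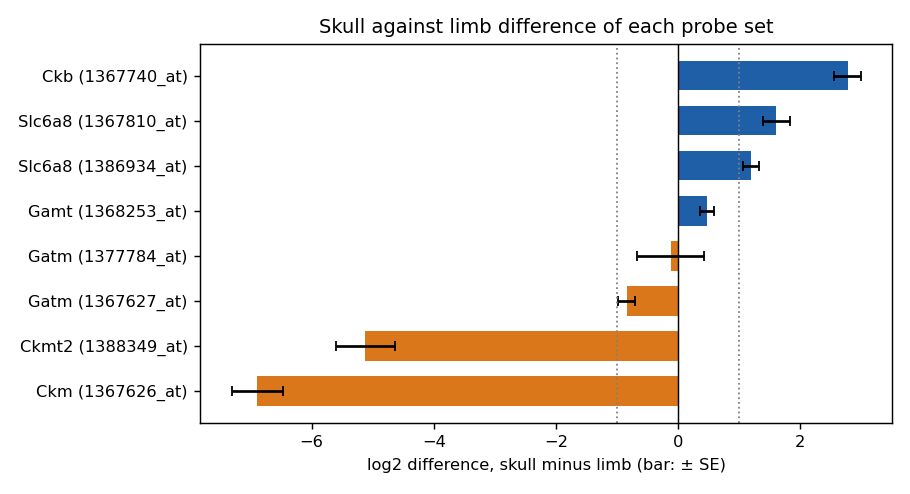
Log2 difference, skull minus limb, of each of the 8 probe sets with its SE from the limma fit over all probe sets (4 skull and 5 limb arrays), with dotted lines at 2-fold. Ckb (2.78) and both probe sets of Slc6a8 (1.20 and 1.61) lie beyond the line on the skull side and Ckm (-6.89) and Ckmt2 (-5.12) on the limb side.

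The rest of the phosphagen pathway was read from lists chosen by function. Of 4 other creatine or related carrier genes none passed both thresholds in limma or in the methods' test, while 2 had an unadjusted p below 0.05 and were higher in the skull. The ubiquitous mitochondrial kinase Ckmt1, named after its values were seen, had 15.1 ± 6.81 (SD) in the skull and 6.77 ± 4.29 (SD) in the limb, where 3 arrays lay at the level of absent controls (log2 difference 1.30 ± 0.50 SE, limma adjusted p = 0.0781). Without ulna 5 it was called (1.59 ± 0.46, limma adjusted p = 0.0336), so the count of 0 depends on that array. The taurine transporter Slc6a6, of the same carrier family as Slc6a8, had 444 ± 56.5 in the skull and 304 ± 20.1 in the limb (0.54 ± 0.09, limma adjusted p = 0.00148, under 2-fold). The creatine exporter Slc16a12 had 12.4 to 26.1 in the skull and 12.9 to 30.9 in the limb (limma adjusted p = 0.624).

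Genes that make, carry or use arginine, glycine and methyl groups mostly differed by less than 2-fold. Of 24 measured, 1 rose and none fell in limma and in the methods' test, with a median log2 difference of 0.01, where 3.59% of all genes were called higher. Without calvaria 1 the glycine cleavage enzyme Gldc was called too. With the replicate number as a block Mat1a was called lower (-1.38 ± 0.34 SE, limma adjusted p = 0.0447). Mat1a was dim, with 3 skull and 2 limb arrays at or below the highest absent control. At an unadjusted p below 0.05, 3 were higher and 6 lower. The same genes had a limma adjusted p below 0.05, and all but Arg1 were under 2-fold. The gene called was Arg1, the liver-type arginase that uses up arginine, at 19.3 to 27.1 in the skull and 8.79 to 14.7 in the limb (1.10 ± 0.23 SE, limma adjusted p = 0.00524), just above the level of absent controls in the limb. Ass1, which makes the precursor of arginine, was named after its values were seen. Its skull mean was 172 and its limb mean 296, with a log2 difference of -0.78 ± 0.08 (limma adjusted p = 0.000126, short of 2-fold).

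Adenylate kinases and genes of AMP handling, the other route by which muscle restores ATP, moved in both directions. Of 18 measured, 4 fell and 1 rose (median -0.47), where 4.47% of all genes were called lower and 3.59% higher. The muscle AMP deaminase Ampd1 had 6.64 to 17.8 in the skull and 53.0 to 175 in the limb (-3.14 ± 0.40 SE, limma adjusted p = 0.000407). Adss1, the muscle adenylosuccinate synthase that works beside it in the purine nucleotide cycle, had 33.2 to 42.1 in the skull and 143 to 384 in the limb, with both of its probe sets called. The α2 catalytic subunit of AMP kinase, Prkaa2, lay below the absent controls in the skull (up to 2.97) and at 17.8 to 52.8 in the limb, so the size of its difference (-3.44) is not resolved.

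The calls were not limited to muscle forms. The AMP deaminase of red cells, Ampd3, had 120 to 156 in the skull and 281 to 365 in the limb (-1.20 ± 0.10, limma adjusted p = 5.9e-05). The adenylate kinase Ak5, known from brain, rose, with 87.6 to 166 in the skull and 12.8 to 31.3 in the limb (2.35 ± 0.29, limma adjusted p = 0.000334). Ckb, known from brain and many other tissues, was higher in the skull as well. Of 10 nerve and glia genes, however, 1 was called higher and 1 lower, with a median of 0.21.

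Of 12 partners of the creatine kinases, 3 fell and none rose in limma and in the methods' test (median -0.09), where 4.47% of all genes were called lower, and at an unadjusted p below 0.05 5 were lower and none higher. The fast muscle calcium pump Atp2a1, which draws on phosphocreatine, had 20.5 to 31.4 in the skull and 736 to 1971 in the limb (-5.60 ± 0.29 SE, limma adjusted p = 1.2e-05). The M-line proteins Myom1 (-2.95 ± 0.51, limma adjusted p = 0.0021) and Myom2 (-4.01 ± 0.38, limma adjusted p = 8.0e-05) fell too, with Myom2 below the absent controls on every skull array. The other 9 did not pass both thresholds, although Atp2a3, a calcium pump of blood cells (-0.76 ± 0.14, limma adjusted p = 0.00263), and the mitochondrial channel Vdac3 (-0.40 ± 0.09, limma adjusted p = 0.00693), both named after their values were seen, were lower by less than 2-fold without overlap.

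**Figure D5:**
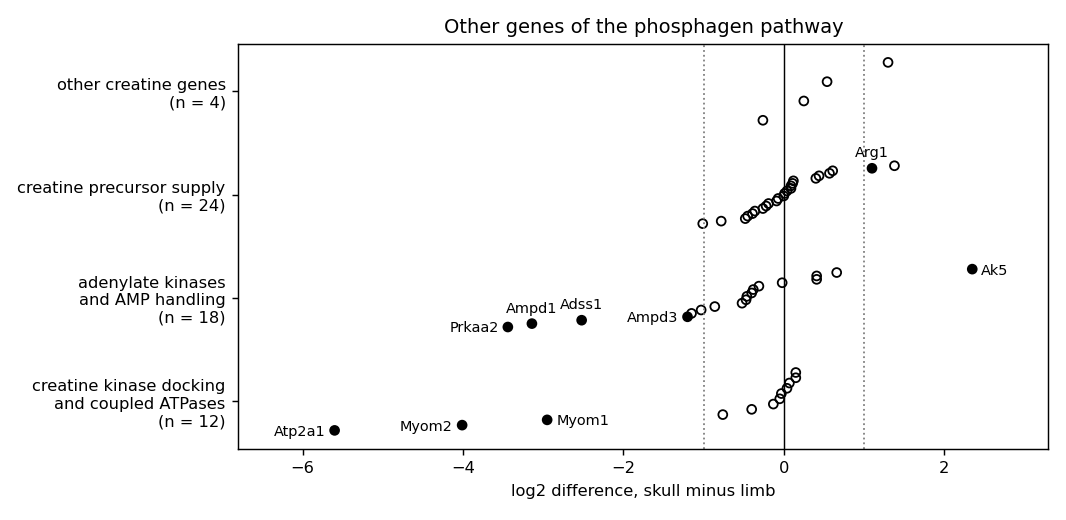
Log2 difference, skull minus limb, of each measured gene of 4 lists of the phosphagen pathway (1 probe set a gene, the brightest), with called genes filled and named and dotted lines at 2-fold. The 7 genes called on the limb side lie between -1.20 (Ampd3) and -5.60 (Atp2a1), and Ak5 (2.35) and Arg1 (1.10) are called on the skull side.

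The genes whose profiles were most like each of the 6 were found by the root mean square difference of mean-centred log2 signals over the 9 arrays, among 7108 or 7109 genes in the upper part of the signal range. Ckb was nearest to the chemokine Ccl9 (0.18), the surface protease Fap (0.18) and the metallothionein Mt3 (0.20). Ckm was nearest to Mb (0.29), then to Myl1 (0.60) and the fast myosin Myh2 (0.66). Ckmt2 was nearest to Atp2a1 (0.52), titin, Ttn (0.62), and the fast troponin Tnnt3 (0.68). These neighbours of the muscle kinases encode sarcomere proteins, a calcium pump and an oxygen-binding protein.

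Slc6a8 was nearest to the transcription factor Twist1 (0.073), the collagenase Mmp13 (0.075) and Arfgap3 (0.093). Gamt was nearest to Rnd3 (0.087), Ergic1 (0.095) and Emc3 (0.096), and Gatm to Tom1l1 (0.063), the condensin subunit Ncapd2 (0.090) and complement C3 (0.093). Among the 6 genes themselves the least distance was that of Slc6a8 and Gamt (0.429) and the greatest that of Ckb and Ckm (4.84). Ckm and Ckmt2 were 1.07 apart. These distances describe the 9 arrays and mostly measure the difference between the sites.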

How the data were processed

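Total RNA from 4 skull and 5 limb extracts was hybridised to whole-genome rat GeneChips after one-cycle labelling. The authors deposited linear intensities computed by MAS5, with equal trimmed means on all arrays. The table gives no detection calls. Of 31099 probe sets, 57 controls were left out and 31042 tested. A single gene symbol was given for 20826, several for 436 and none for 9780.

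Each array was scaled to a common median. Signals were floored at the 10th percentile of all signals (2.51) and taken to log2. Sites were compared with limma (version 3.58.1, R 4.3.3; lmFit, eBayes with an intensity trend), checked on simulated data. A call needed an adjusted p below 0.05 (Benjamini-Hochberg over all probe sets) and a 2-fold difference. For lists, each gene was represented by its brightest probe set, with p adjusted over 14217 genes. Samples were grouped by their titles. The methods give separate groups of rats, but the labels tie no array to one, so p-values measure the spread between these extracts. The number of arrays limits the precision.

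The 6 genes, the lists and the tests were chosen with earlier results of these data known. The rule for named genes takes all 6 genes, up to 6 called genes of a pathway list and up to 4 of a cell type list by adjusted p (the 2 brightest where none was called), and the 3 genes most like each of the 6. Other names were chosen after their values were seen. Of the listed genes, those without a probe set naming them alone were not analysed here. Alternatives were other scalings, floors, a filter on dim probe sets, other models, the methods' analysis of variance, the replicate number as a block and leaving out each array. Replicate numbers are shared by the sites. Deviations from the site means correlated above 0.1 for 2 of the 4 same-numbered pairs (r from 0.009 to 0.158). For differently numbered pairs r was -0.185 to 0.078. Whether same-numbered arrays came from the same rats was thus not settled. The main fit used no pairing, and the replicate block was run as an alternative. Promoter letters are from RefSeq (GRCr8), where all 6 genes matched.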

Additional observations from a re-analysis of the deposited data

Results flagged for a closer look

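Of 110 groups of arrays checked for an array far from the others of its site, 5 were picked out, where chance would pick about 5%, and none was a creatine gene. They were the skull signals of Cox8b on calvaria 1 (3.64), Mybpc1 on calvaria 2 (5.86), Myh7 on calvaria 2 (2.64) and Prkaa2 on calvaria 1 (2.97), each the only skull array above the floor of 2.51, and of Mbp on calvaria 4 (95.2, below the other skull arrays).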

How the results depend on the processing

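The 5 probe sets of Ckb, Ckm, Ckmt2 and Slc6a8 passed both thresholds under every alternative run and without any 1 array (lowest 5, highest 5). Of 151 alternative log2 differences of the 8 probe sets 144 kept their sign, and the exceptions were all of the dim Gatm 1377784_at. With 16 added to each signal and no floor, the differences of Ckm (-5.64) and Ckmt2 (-3.26) were smaller, and fewer features were called: 1032 probe sets against 1938, and 686 genes against 1147, of which 285 against 511 were higher and 401 against 636 lower in the skull. Arg1 (0.55), Adipoq (-0.99) and Myocd (0.44) were then not called. Myocd, with 4 limb arrays at or below the highest absent control, also lost its call with the floor at the 25th percentile (0.5). Without any 1 array, 1716 to 2045 probe sets, 9 to 10 genes of the pathway lists and 44 to 50 of the cell type lists were called. With the replicate block, which also leaves out ulna 5, 1571 probe sets, 10 pathway genes and 47 cell type genes were called, against 1796, 10 and 48 without the block on the same arrays. The block ended the call of Myocd (limma adjusted p = 0.0846). The call of Myocd also ended without calvaria 1, 3 or 4 or without ulna 1, 2 or 4 (1.04 to 1.17), and that of Adipoq without calvaria 3 or 4 (-0.92 and -1.02). With the filter on dim probe sets 6 pathway genes were called against 9, since dim genes were not tested. The background limits the size of every difference whose skull signal lay at the level of absent controls.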

Other observations

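Other tissues that use creatine kinases were read from lists as well. Over all genes 3.59% were called higher and 4.47% lower. Of 8 smooth muscle genes Synpo2 was lower in the skull (-2.14 ± 0.29 SE, limma adjusted p = 0.000563, 1 of its 4 probe sets called) and the coactivator Myocd higher (1.19 ± 0.34, limma adjusted p = 0.0245, a call that ended under several alternatives), with a median of 0.45. The list mean was 5.26 to 5.94 in the skull and 5.30 to 5.67 in the limb, so the sites overlapped. Of 10 nerve and glia genes the calcium-binding protein S100b was higher (124 to 152 in the skull and 39.3 to 72.2 in the limb, limma adjusted p = 0.000545) and Mbp lower (95.2 to 120 in the skull and 248 to 363 in the limb, limma adjusted p = 5.7e-05), and the list means overlapped (4.57 to 5.07 in the skull and 4.20 to 4.83 in the limb). Without calvaria 1 or ulna 5 the neurofilament gene Nefl was called higher too.

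Fat and red cell genes were read in the same way, where 4.47% of all genes were called lower and 3.59% higher. Of 8 adipocyte genes Fabp4 (-1.18 ± 0.20), Plin1 (-1.84 ± 0.42) and Adipoq (-1.14 ± 0.31, a call that ended under several alternatives) fell and none rose, while the other 5 did not pass both thresholds, with list means of 4.95 to 5.69 in the skull and 5.82 to 6.11 in the limb. Of 8 erythroid genes Klf1 (-1.84 ± 0.11), Gata1 (-1.81 ± 0.12), Epb42 (-1.84 ± 0.13) and Ahsp (-1.11 ± 0.11) were among 6 that fell, and none rose. The list mean was 9.63 to 9.92 in the skull and 10.81 to 11.06 in the limb. The methods' test also called none of either list higher, and at an unadjusted p below 0.05 1 adipocyte gene and no erythroid gene was higher.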
